A study of Bos taurus with 4 samples.

Results

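The mitochondrial ribosomal proteins were taken as all array probes whose gene symbol in the platform annotation begins with MRPL or MRPS, a rule that uses no measured value. It gave 75 genes with 128 probes, of 15229 gene symbols and 43794 probes on the array. Gene expression was measured in 8 pools of in vitro produced bovine blastocysts, which had been frozen as morulae, thawed and cultured on to the expanded blastocyst stage. The labels give 7 days after fertilisation in both groups. In the methods, day 7 is when the morulae were collected, so the blastocysts had been cultured beyond that day. In the vitrified group (4 pools, V1 to V4) the morulae were cooled on Cryotop carriers with ethylene glycol and dimethyl sulphoxide, and in the slow-frozen group (4 pools, SF1 to SF4) they were cooled at a controlled rate in glycerol. Each pool held 7 embryos per the labels (5 to 7 in the methods), and only embryos that survived to expanded blastocysts entered a pool, so both groups describe survivors. V1, V2, SF1 and SF2 were labelled with Cy5, and V3, V4, SF3 and SF4 with Cy3.

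The mitochondrial ribosome makes the few proteins that are still encoded in mitochondrial DNA, which are core subunits of the respiratory chain and ATP synthase. Its own proteins are encoded in the nucleus and imported. Many belong to families shared with bacterial ribosomes, and the rest are found only in mitochondria. In early embryos the mitochondria are inherited from the oocyte, and the blastocyst is the stage at which respiration increases as the outer cell layer, the trophectoderm, begins to pump fluid into the cavity. In these bulk pools, fewer cells of a type and less RNA per cell cannot be told apart.

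All 75 genes were measurable. A probe was kept if, in 3 or more of a group's 4 pools, it was brighter than 95 of 100 negative control spots, and 126 of the 128 probes passed, as did 30034 of all probes. The MRPS10 probe EMBV3_18826 and the MRPS35 probe EMBV3_24431 were above the controls in 0 of 8 pools, but a different probe of each gene was kept. Of the 126 probes, 122 were above the controls in all 8 pools, and 0 were saturated. The percentage of all array probes above the controls lay between 63.3 (SF4) and 74.1 (V1) per pool, with SF2 second lowest at 65.3. The methods place the vitrified and slow-frozen pools on different slides, each beside unfrozen control pools that are not used here, so slide and freezing method cannot be told apart. On the first principal component of all kept probes (24.8% of the variance), V3 (56.3) and SF2 (-34.2) stood farthest from the other pools, which lay between -10.3 and 9.52, so the shift of the whole list and the genes with the highest differences are also given without them.

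No mitochondrial ribosomal protein passed the test between the groups. With limma and Benjamini-Hochberg adjustment over all kept probes, 0 of the 126 probes had an adjusted p under 0.05 (smallest 0.939), where 1 probe of 30034 did, higher in vitrified pools (0.00333%, and 0% lower). At an unadjusted p under 0.05 there were 2 probes higher and 0 lower in vitrified pools, against a background of 2.45% higher and 2.38% lower (4.83% either way). Under the study's thresholds of a fold of at least 2 with an unadjusted p under 0.05 there were 0 (background 0.183%). There were also 0 probes for which the 4 vitrified and the 4 slow-frozen values did not overlap, where 2.46% of all kept probes were separated in this way (1.48% higher and 0.979% lower in vitrified pools). The differences were small: the largest fold was 1.34, and the 95% confidence intervals of the 126 probes lay between -0.93 and 0.83 on the log2 scale, so 0 of them reached a 2-fold change.

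The direction leaned to one side. The log2 difference, vitrified minus slow-frozen, was above 0 for 98 of the 126 probes and below 0 for 28, with a median of 0.09. Over all kept probes 51.5% were above 0 and the median was 0.01. With each gene represented by its brightest kept probe, 61 of the 75 genes were higher in vitrified pools and 14 lower (median 0.13), while 52.3% of all 11737 genes were higher (median 0.01). These counts describe the list and carry no test. When the kept probes were divided into 4 classes of equal size by mean intensity, the brightest class (log2 intensity above 9.78) held 72 members. Of these, 61 were above 0 with a median of 0.13, and the median of all 7509 probes in that class was 0.01. In the next class 31 of 40 members were above 0 (median 0.07). The dimmer classes did not lean this way, with 6 of 13 above 0 (median -0.03) and 0 of 1 in the dimmest.

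The pools of a group were not alike in this respect. After each probe was centred on its own mean over the 8 pools, the median of the 126 probes was 0.03 in V1, -0.01 in V2, 0.15 in V3 and 0.02 in V4. It was 0.07 in SF1, -0.15 in SF2, 0.02 in SF3 and -0.18 in SF4. V3 was thus the highest pool, SF2 and SF4 were the lowest, and SF1 and SF3 lay among the vitrified pools. SF4 and SF2 also had the lowest percentages of array probes above the controls (63.3 and 65.3, the next being SF3 with 67.1). The part of detection in these medians was not tested. The difference between the group means of these pool medians was 0.11, and their SD within groups was 0.10 (pooled, n = 4 and 4).

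**Figure D1:**
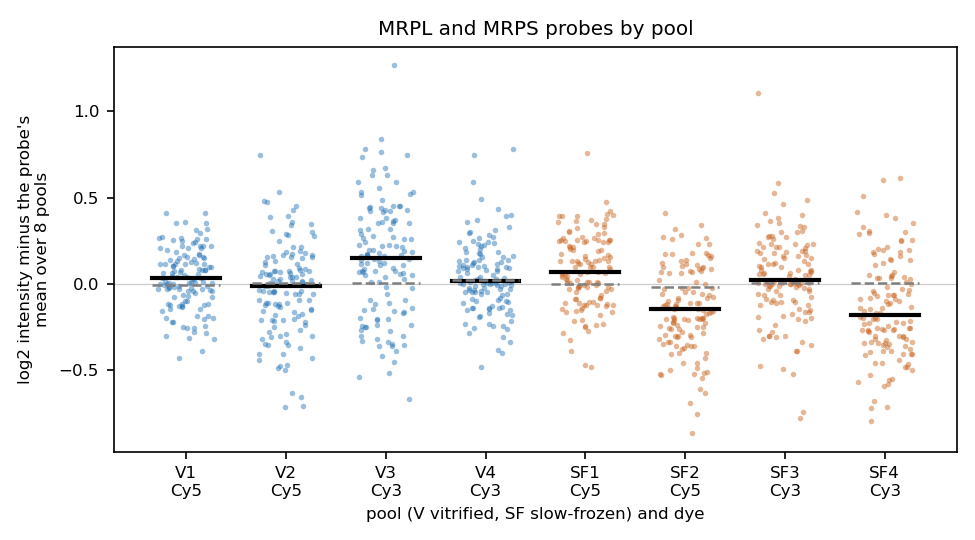
Log2 intensity of each of the 126 MRPL and MRPS probes minus its mean over the 8 pools, by pool and dye. Black lines are the medians of these probes and dashed grey lines the medians of all kept probes; V3 sits highest (0.15) and SF2 (-0.15) and SF4 (-0.18) lowest, while the other 5 pools overlap.

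Counted by probe, V3 held the highest value of the 8 pools for 45 of the 126 probes (35.7%), and it did so for 20.7% of all kept probes. SF4 held the lowest value for 38 probes (30.2%) and SF2 for 32 (25.4%), against 15.1% and 15.2% of all kept probes. V2 and V3 held the lowest value for 17 probes each, SF3 for 14, V1 for 4, and V4 and SF1 for 2 each. The last value is that of a slow-frozen pool, so the lowest values were not spread evenly over that group. The shares of all kept probes for SF1, V1 and V4 were 10.8%, 11.3% and 6.92%. When V1 was set against SF3, the pool joined with it in the same deposited file, 64 of 126 probes were higher in the vitrified pool. The other pairs within a file gave 78 for V2 against SF4, 72 for V3 against SF1 and 91 for V4 against SF2. Over all kept probes these pairs gave 48.4%, 50.6%, 50.5% and 54.3% higher in the vitrified pool, where the members gave 50.8%, 61.9%, 57.1% and 72.2%. Between pools with the same replicate number and dye, V1 against SF1 went the other way, with 54 of 126 probes higher and a median of -0.04, and the other numbers gave 80, 74 and 86.

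Leaving out pools changed the size of the shift. The median of the 126 probes was 0.15 without SF1 (98 probes above 0), 0.06 without SF2 (80 above 0) and 0.05 without SF4 (79 above 0). With both V3 and SF2 left out, a setting chosen after seeing the data, 63 probes were above 0 and 63 below, and the median was 0.0007. V3 and SF2 were picked from the principal component over all kept probes, but they are also the highest and one of the lowest pools for the MRPL and MRPS probes, so that setting is not independent of the shift it examines.

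**Figure D2:**
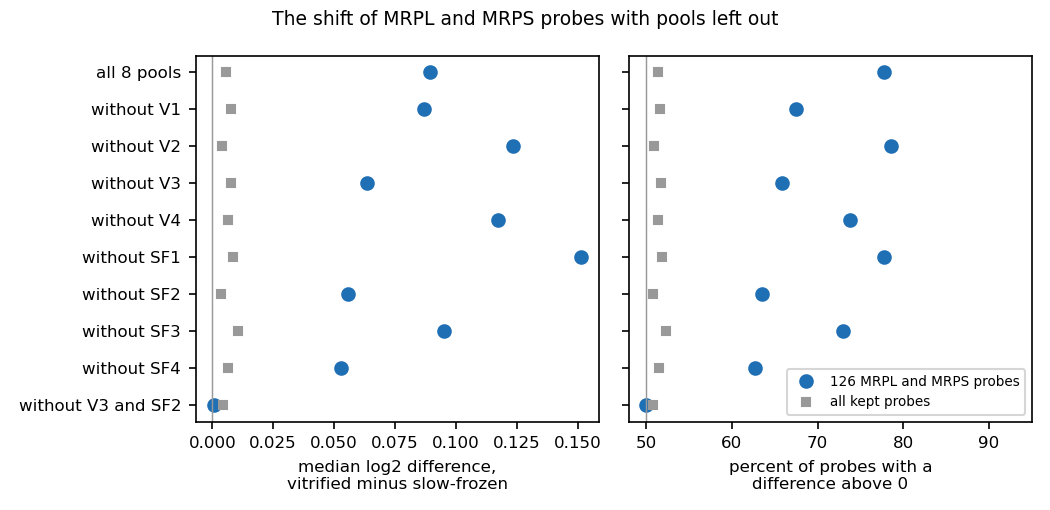
Median log2 difference (left) and percentage of probes with a difference above 0 (right) with all 8 pools, with each pool left out, and with V3 and SF2 both left out. Circles are the 126 MRPL and MRPS probes and squares all kept probes; the circles stay to the right of the squares when 1 pool is left out, from 62.7% to 78.6%, and come to 50% when V3 and SF2 are both left out.

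The summed markers of trophectoderm and of inner cell mass and hypoblast differed between the groups as well. The summed normalised intensity of 15 trophectoderm markers, over their 25 probes, was 161955 to 193324 in vitrified pools and 209950 to 259594 in slow-frozen pools. Of the 15 genes, 14 had a difference below 0 and 1 above, from -1.22 for PTGS2 and -1.06 for KRT19 to 0.05 for TFAP2C. CDX2 (-0.22), GATA3 (-0.17), TEAD4 (-0.16) and IFNT (-0.0008) differed less. These sums, here and below, add every probe of a gene on the linear scale, so bright genes and genes with several probes weigh most. The summed intensity of 12 markers of inner cell mass and hypoblast was 28012 to 38901 in vitrified pools and 24700 to 26600 in slow-frozen pools. Of the 11 of these genes with a kept probe, 8 had a difference above 0 and 3 below, ESRRB (-0.34), LIN28B (-0.36) and NANOG (-0.08). Both sums were separated between the groups, and 0 of these genes passed the adjustment. The marker lists were chosen with earlier results of these data known, so the separation is not independent of those results. The paper reports PTGS2 and KRT19 as lower after vitrification than in unfrozen controls. The 12 markers of cumulus and granulosa cells summed to 5245 to 8519 in vitrified and 8389 to 19484 in slow-frozen pools, most of it from PTGS2, which is also on the trophectoderm list. Without PTGS2 the ranges were 2262 to 2508 and 2325 to 2560. Of these 12 genes, 7 had a kept probe, among them CYP19A1 (above the controls in 8 pools with 1 probe) and FSHR (7 pools), and those of AMH and LHCGR were above the controls in 0 pools. Blood markers summed to 1362 to 1829 in vitrified and 1489 to 1910 in slow-frozen pools, and all 5 had a kept probe. The part of cell composition in the mitochondrial ribosomal protein values was not tested.

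Proteins of the large subunit, which forms the peptide bonds, gave a median gene difference of 0.15, with 39 of 48 genes above 0. Those of the small subunit, which reads the messenger RNA, gave 0.11, with 22 of 26 above 0. Both subunits therefore leaned the same way, by similar amounts. Large subunit members of bacterial families had a median of 0.15 (24 of 30 above 0), and large subunit members found only in mitochondria had 0.06 (15 of 18). In the small subunit the corresponding medians were 0.11 (13 of 16) and 0.15 (9 of 10). MRPS30 and MRPS18A were counted with the large subunit, where their proteins lie in the mammalian structure despite their names. MRPS36 was counted with neither, because its product, KGD4, is known as a part of the 2-oxoglutarate dehydrogenase complex. MRPS18A and MRPS18B were counted among the members found only in mitochondria, although they are relatives of bacterial S18.

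**Figure D3:**
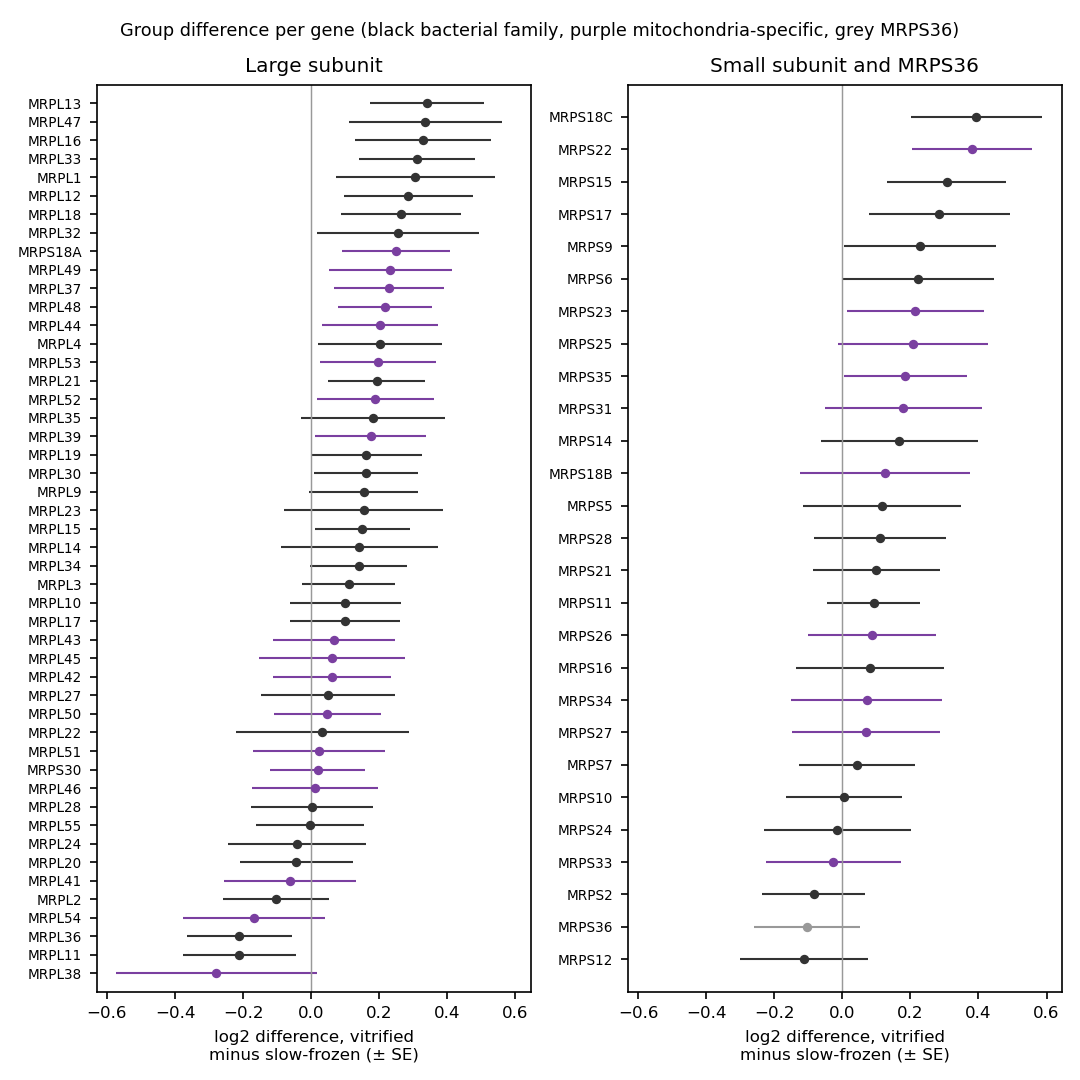
Log2 difference, vitrified minus slow-frozen, with its standard error, for the brightest kept probe of each gene (n = 4 pools a group). Genes are ordered by difference within the large subunit (48 genes) and the small subunit with MRPS36 (27 genes); the points run from -0.28 for MRPL38 to 0.39 for MRPS18C, and 0 genes passed the adjusted test.

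In the small subunit, MRPS18C had the highest difference of the 75 genes. It encodes one of 3 mammalian versions of the bacterial S18 protein. Its log2 intensity was 13.00, 13.10, 13.66 and 13.15 in V1 to V4, and 13.23, 12.77, 12.64 and 12.69 in SF1 to SF4. SF1 lay within the vitrified range and the other slow-frozen pools lay below it. The difference was 0.39 ± 0.19 (SE), a fold of 1.31, with an adjusted p of 1.00 in limma (unadjusted p = 0.067). Its dimmer probe varied with it over the pools (r = 0.91 over 8 pools that share both probes' libraries) and differed by 0.21. The difference was 0.22 without V3, and 0.15 without V3 and SF2.

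MRPS22, a small subunit protein found only in mitochondria, measured 11.32, 11.23, 11.83 and 11.07 in V1 to V4. In SF1 to SF4 it measured 11.09, 10.97, 10.89 and 10.98. V3 was highest, V4 lay just below SF1, and the groups were otherwise apart. The limma difference was 0.38 ± 0.18 (SE, unadjusted p = 0.054, adjusted p = 1.00), and the gene's other probe gave 0.20. Without V3 the difference was 0.20, and without V3 and SF2 it was 0.16. MRPS15, whose bacterial relative binds the small subunit RNA early in assembly, differed by 0.31 ± 0.17 (SE). Its values were 11.00 to 11.31 in vitrified and 10.54 to 11.21 in slow-frozen pools. The MRPS15 difference was 0.17 without SF2 and 0.14 without V3 and SF2.

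In the large subunit, MRPL13 had the highest difference. It measured 9.71, 10.08, 10.34 and 10.21 in V1 to V4 and 9.90, 9.66, 9.92 and 9.51 in SF1 to SF4. V1 lay inside the slow-frozen range and the other vitrified pools above it, for a difference of 0.34 ± 0.17 (SE), or 0.21 without SF4 and 0.25 without V3 and SF2. A second MRPL13 probe gave -0.03, with r = -0.17 between the probes over 8 pools, so the gene's direction depended on the probe.

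MRPL33 encodes a small large-subunit protein of the bacterial L33 family. It measured 11.66, 11.82, 12.30 and 11.67 in V1 to V4, and 11.69, 11.56, 11.39 and 11.57 in SF1 to SF4. V3 was again the highest pool, and SF1 lay among the vitrified values. The difference was 0.31 ± 0.17 (SE), and it was 0.15 without V3 and 0.12 without V3 and SF2. MRPL47, of the L29 family that sits near the exit of the peptide tunnel, had 0.33 ± 0.22 (SE), which was 0.16 without V3, 0.17 without SF2, 0.52 without SF1 and -0.08 with V3 and SF2 both left out.

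MRPL16, whose bacterial relative lies beside the binding sites for transfer RNA, differed by 0.33 ± 0.20 (SE). Its vitrified pools were tight, from 11.46 to 11.67, and its slow-frozen pools ranged from 10.83 to 11.83. The difference was 0.13 without SF4, 0.53 without SF3 and 0.26 without V3 and SF2. MRPL1, of the family that forms the stalk near the exit site for transfer RNA, differed by 0.31 ± 0.23 (SE), with 11.62 to 12.36 in vitrified and 11.14 to 12.09 in slow-frozen pools. It was 0.08 without SF3, 0.19 without V2, 0.48 without V1, 0.47 without SF4 and 0.28 without V3 and SF2. The slow-frozen range covered the vitrified one for MRPL16, whereas for MRPL1 V2 and V3 lay above all slow-frozen pools.

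At the other end, 14 genes were lower in vitrified pools. MRPL38, a large subunit protein found only in mitochondria, had the lowest difference, -0.28 ± 0.29 (SE). Its intensity was 10.28, 9.83, 9.99 and 10.14 in V1 to V4 and 10.41, 9.89, 11.30 and 9.74 in SF1 to SF4. SF3 alone stood high, and without that pool the difference was 0.07. The dimmer MRPL38 probe gave -0.20, and SF3 was its highest pool too, at 10.41.

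MRPL11, of the L11 family at the site where elongation factors bind, measured 13.45, 13.65, 13.40 and 13.68 in V1 to V4. In SF1 to SF4 it measured 13.79, 13.30, 13.96 and 13.98. SF2 was the lowest of all pools and the other slow-frozen pools were above every vitrified pool. The difference was -0.21 ± 0.17 (SE), and it stayed below 0 under every setting tried, from -0.35 to -0.11.

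MRPL36, of the L36 family, measured 8.26, 8.33, 7.82 and 8.28 in V1 to V4, and 8.48, 8.69, 8.35 and 8.03 in SF1 to SF4. V3 was the lowest pool here, unlike for most members, and the difference was -0.21 ± 0.16 (SE). Without V3 the MRPL36 difference was -0.14, and without V3 and SF2 it was -0.04. MRPL54 differed by -0.17, and its dimmer probe by 0.0008. MRPS12, of the family at the decoding centre, differed by -0.11 ± 0.19 (SE), but its only kept probe was above the controls in 6 of 8 pools, with log2 intensities of 7.21 to 7.89.

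The other genes below 0 named by the same rule were MRPS36 (-0.10), MRPL2 (-0.10) and MRPS2 (-0.08). MRPS36 measured 10.19, 10.54, 9.88 and 10.14 in V1 to V4 and 10.60, 10.41, 10.29 and 9.87 in SF1 to SF4, so the ranges were nearly the same. Both MRPS36 probes varied together (r = 0.89 over 8 pools), and both were brighter in Cy5. The Cy5 minus Cy3 values were 0.39 and 0.40 (unadjusted p = 0.030 and 0.031 in limma, adjusted p = 0.62 and 0.63).

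**Figure D4:**
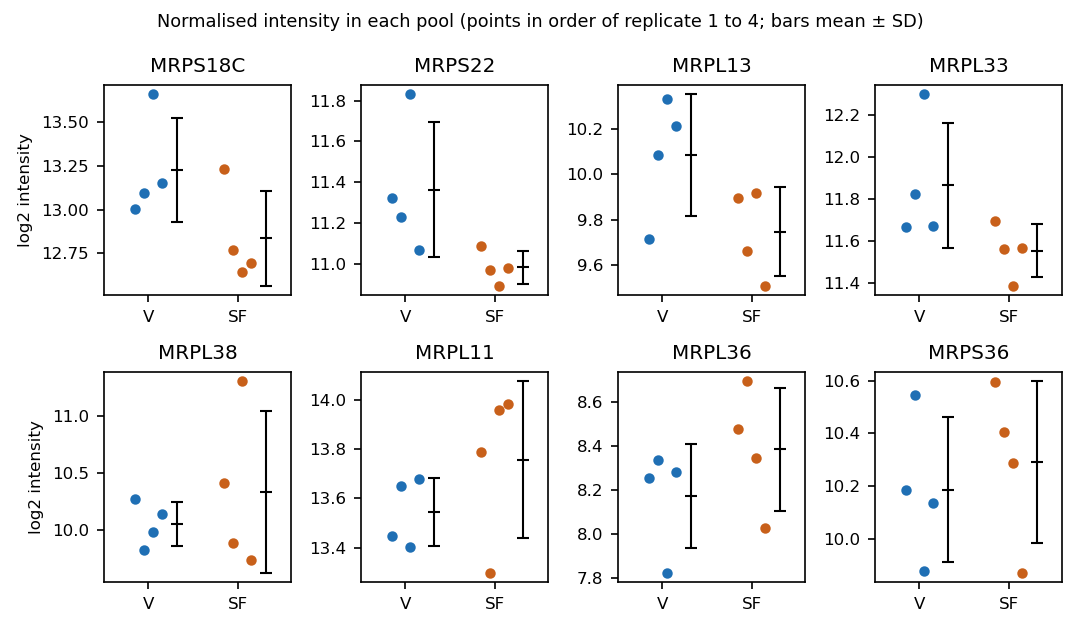
Log2 normalised intensity of the brightest kept probe of 8 genes in each vitrified (V, blue) and slow-frozen (SF, orange) pool, points in order of replicate 1 to 4, with the mean and SD of each group. Every panel has its own axis, and the groups overlap in all 8; V3 is the highest pool for MRPS18C, MRPS22, MRPL13 and MRPL33 and the lowest for MRPL36.

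The 2 probes with an unadjusted p under 0.05 are named here after their values were seen. Neither is the brightest probe of its gene. The MRPL39 probe EMBV3_29057 measured 9.37, 9.49, 8.81 and 8.87 in V1 to V4 and 8.98, 9.02, 8.66 and 8.46 in SF1 to SF4. Among Cy5 pools and among Cy3 pools, both vitrified values were above both slow-frozen ones, but across dyes the groups overlapped. The dye difference, Cy5 minus Cy3, was 0.51, and the group difference was 0.36 ± 0.13 (SE, unadjusted p = 0.019 in limma, adjusted p = 0.939). The other 3 MRPL39 probes gave 0.17, 0.25 and 0.01. The last of these was above the controls in 7 of 8 pools.

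The MRPS25 probe EMBV3_10231 measured 8.70, 8.73, 9.41 and 8.96 in V1 to V4, and 8.78, 8.38, 8.62 and 8.35 in SF1 to SF4. SF1 lay above V1 and V2. MRPS25, a small subunit protein found only in mitochondria, differed by 0.42 ± 0.18 (SE) with this probe (unadjusted p = 0.042 in limma, adjusted p = 1.00) and by 0.21 with its brighter probe. Without V3 the dimmer probe gave 0.27.

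Members differed in how much they varied among pools of one group. The SD left after group and dye were taken out had a median of 0.27 for the 126 probes and 0.23 for all kept probes. Among probes above the controls in all 8 pools the medians were closer, 0.27 for members and 0.26 for all kept probes. By the plain SD within a group, which still holds the dye difference, the brightest probes of 46 genes varied more among slow-frozen pools. Those of 29 varied more among vitrified pools, and the share over all genes was not computed. The largest residual SDs of the 75 genes were those of MRPL38 (0.55), MRPL22 (0.46), MRPS18B (0.45) and MRPL32 (0.43). MRPL22, of a family that lines the peptide tunnel, measured 13.71, 13.13, 14.36 and 13.26 in V1 to V4 and 13.71, 13.34, 13.95 and 13.33 in SF1 to SF4. Its 3 probes all peaked in V3 and varied together (r = 0.74 to 0.82 over 8 pools).

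MRPL32, of a family whose mitochondrial precursor is matured by the m-AAA protease in yeast and mouse, differed in spread between the groups. It lay between 9.84 and 9.98 in the 4 vitrified pools, and measured 10.19, 9.36, 8.99 and 10.02 in SF1 to SF4. SF1 and SF4 were above all vitrified pools and SF2 and SF3 below them. MRPS18B, another relative of bacterial S18, ranged from 9.97 to 10.73 in vitrified and from 9.64 to 10.86 in slow-frozen pools.

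The steadiest genes were MRPL3 (residual SD 0.12), MRPS11 (0.13), MRPL48 (0.13) and MRPS30 (0.14). MRPL48 measured 11.59, 11.65, 11.67 and 11.77 in V1 to V4 and 11.63, 11.36, 11.52 and 11.30 in SF1 to SF4. Only SF1 lay within the vitrified range, and the difference was 0.22 ± 0.14 (SE, unadjusted p = 0.14, adjusted p = 1.00 in limma). MRPL3, of the family that reaches from the surface toward the peptidyl transferase centre, differed by 0.11. The differences were 0.09 for MRPS11 and 0.02 for MRPS30.

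Different probes of a gene often gave different directions. More than 1 probe was kept for 37 of the 75 genes, and all probes of a gene had the same sign in 22 of them (59.5%, and 51.3% of all 2911 genes with several kept probes). The median correlation between probes of a gene was 0.23 over the 8 pools. MRPL23, MRPS31 and MRPS18C had probe pairs with r of 0.94, 0.93 and 0.91. For MRPL53 both probes differed in the same direction, by 0.01 and 0.20, although they moved oppositely over the pools (r = -0.74). MRPS34 gave 0.07 with its brighter and -0.29 with its dimmer probe, and MRPL15 gave 0.15, 0.02 and -0.32 with its 3 probes. Between genes, the 2775 pairs of brightest probes had a median r of 0.17, with 65.7% above 0. These pairs share the same 8 libraries.

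Dye differences were also found among the members, at about the rate of the whole array. Between Cy5 and Cy3 pools, 11 of the 126 probes had an unadjusted p under 0.05, 6 higher and 5 lower in Cy5, against a background of 7.29% of all kept probes (3.43% higher and 3.86% lower). After adjustment 0 remained, where 0.0433% of all kept probes did. The widest dye differences were -0.78 for an MRPL49 probe and -0.76 for an MRPS7 probe, which exceeds every group difference in the list. Each group held 2 pools of each dye, and the group differences above were fitted with dye as a term.

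The rest of mitochondrial gene expression gave mixed medians. Ribosomal proteins that carry other names were higher in vitrified pools for 6 of 6 genes, with a median of 0.17. The smallest unadjusted p among these was that of CHCHD1 (mS37), which differed by 0.35 ± 0.16 (SE), followed by AURKAIP1 (mS38) with 0.28 ± 0.15 (SE). CHCHD1 measured 9.55, 9.96, 9.74 and 9.81 in V1 to V4 and 9.73, 9.42, 9.29 and 9.21 in SF1 to SF4, with SF1 inside the vitrified range. Translation factors had a median of 0.13 (11 of 15 above 0), and the elongation factors GFM1 and GUF1 differed by 0.25 and 0.26.

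Ribosome assembly genes had a median of 0.07 with 10 of 17 above 0, and NGRN and C6H4orf14, with the smallest unadjusted p, both differed by 0.44. The list of mitochondrial aminoacyl-tRNA synthetases also held the tRNA amidotransferase genes QRSL1, GATC and PET112L. Its 16 genes lay near 0, with a median of 0.01 and 10 above 0. Among them YARS2, which charges tyrosine, differed by 0.35 ± 0.14 (SE) and its groups did not overlap, with 9.06 to 9.48 in vitrified and 8.73 to 9.02 in slow-frozen pools. The groups were also apart for PTCD3 (mS39), a ribosomal protein of another name, and for NDUFB10 of complex I, which makes 3 of the 189 genes in these lists (1.59%), where 2.82% of all genes were apart. RARS2, which charges arginine, differed by 0.31. Genes of mitochondrial transcription and DNA maintenance split evenly (6 of 11 above 0, median 0.17), with SSBP1, the single-stranded DNA binding protein, at 0.44 and POLG2, the accessory subunit of the DNA polymerase, at 0.42.

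Import genes had a median of 0.11 (16 of 25 above 0), and GRPEL2 and TIMM8A, with the smallest unadjusted p, differed by 0.23 and 0.37. Complex I subunits, several of whose partners are made by the mitochondrial ribosome, had a median of 0.14 with 25 of 36 above 0. Their pool medians were also low in SF2 (-0.14) and SF4 (-0.17). The 63 measured cytosolic ribosomal proteins gave a median of 0.01 with 35 above 0, and their pool medians were high in V3 (0.13) and SF3 (0.12) and low in SF4 (-0.15). Of all these genes, 0 passed the adjustment in limma. At an unadjusted p under 0.05, the share higher in vitrified pools was near the background and the share lower was below it. The genes past it were 1 ribosomal protein of another name, 1 synthetase, 2 genes of transcription and DNA maintenance and 2 complex I subunits. All were higher in vitrified pools, and there were 0 translation factors, assembly genes, import genes or cytosolic ribosomal proteins. Together these are 6 of 189 genes (3.17%), where 2.96% of all genes at their brightest probe were higher in vitrified pools at that p. Lower in vitrified pools were 0 of the 189 genes, where 3.02% of all genes were.

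**Figure D5:**
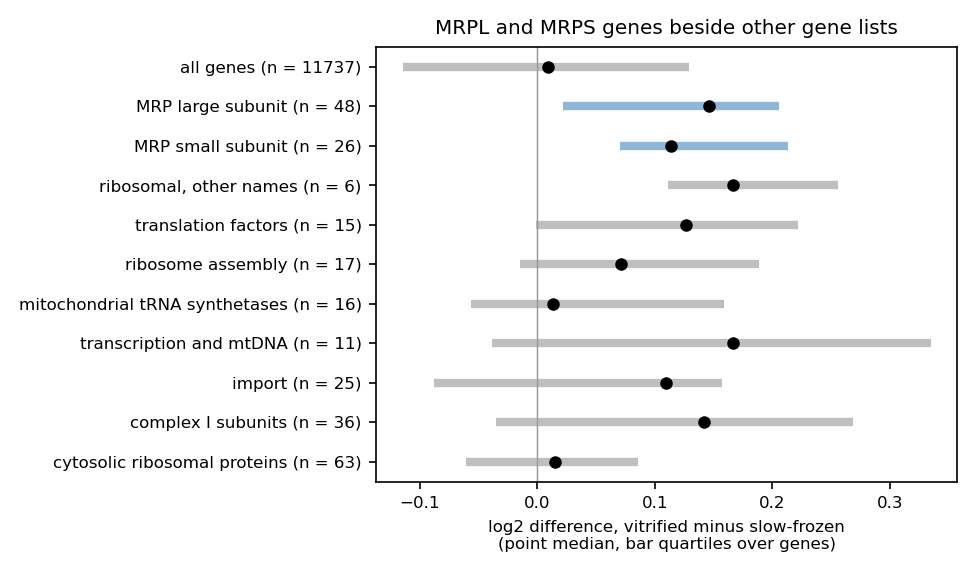
Median (point) and quartiles (bar) over genes of the log2 difference, vitrified minus slow-frozen, with each gene at its brightest kept probe. Both MRP subunits (0.15 and 0.11) sit to the right of all genes (0.01) and of the cytosolic ribosomal proteins (0.01), beside complex I subunits (0.14); no difference between lists was tested.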

How the data were processed

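Per the file headers, the deposited intensity values are Array-Pro medians of each spot and of its surrounding background, not yet subtracted. The authors amplified the RNA of each pool, labelled it with a dye and, from different slides, placed 1 channel of each group side by side in each of 4 files. They also deposited a table of log2 ratios per file, used as an alternative, which matched the scanner values (r over 0.99 in each file). An alignment genome build was not given in the sources used here, and no sequence is shown.

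The normexp correction (offset 50) was applied first. Files were then normalised by loess, in which control spots had weight 0, and the 8 channels by quantiles. The 58 probes marked as ignored were left out. The bound from the 153 negative control spots lay between 81 and 332, and the number of arrays limits the precision. Groups, replicate numbers and dyes came from the labels. The group test was that of limma (3.58.1, R 4.3.3, two-sided) with dye as a term, on separate pools per the labels, with Benjamini-Hochberg adjustment across the kept probes. The probe-based tests were tested on simulated data. Symbols were those of the platform annotation, and all 75 were found in RefSeq.

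The members and lists were chosen with earlier results of these data known. Named genes were the 8 highest and 8 lowest differences, the 4 smallest p-values, the 4 largest and 4 smallest residual SDs, genes whose probes conflict beside a probe with an unadjusted p under 0.05, members with a probe that was not kept, and the 2 smallest p-values of each other list. Alternatives covered background, loess, scaling, filter, dye, replicate block, file, probe choice, the deposited log2 table and each pool left out.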

Additional observations from a re-analysis of the deposited data

Results flagged for a closer look

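Within each group of 4 pools, the gap of the highest and the lowest pool to its nearest neighbour was set against the group's range, for 80 groups of named genes and probes and of the pool medians. In 5 of them the gap exceeded Dixon's bound of 0.829, and chance gives about 1 in 20. Among vitrified pools, MRPL36 was low in V3, at a log2 intensity of 7.82 where the nearest pool had 8.26. Among slow-frozen pools, MRPS30 was high in SF1 (12.03, nearest 11.71), and MRPS10 was high in SF1 as well (11.17, nearest 10.70). C6H4orf14, listed with ribosome assembly, was low in SF2 (8.01, nearest 8.80), and RARS2 was high in SF3 (11.65, nearest 11.01).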

How the results depend on the processing

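Of the 39 named genes and probes, 32 kept the sign of their difference under every setting tried (MRPS12 had no value under the stricter filter). For 24 of the 25 named MRPL and MRPS genes, all but MRPL48, leaving out 1 pool moved the difference by over 1.5 times in either direction. MRPL38 changed sign with SF3 left out (range with 1 pool left out -0.556 to 0.0707), MRPL22 with V1, V3, SF2 or SF4 left out (-0.21 to 0.23), MRPS18B with V2 or SF2 left out (-0.0665 to 0.350), MRPS30 with V3, SF2 or SF3 left out (-0.0358 to 0.111) and MRPS10 with V3, SF2, SF3 or SF4 left out (-0.12 to 0.15). In the deposited value table MRPS30 was -0.000854 and MRPS10 was -0.00472. With V3 and SF2 both left out (added after seeing the data), the differences were -0.0836 for MRPL47, -0.336 for MRPL22, -0.0587 for MRPS18B, -0.0749 for MRPS30, -0.230 for MRPS10 and -0.0654 for MRPS35. That setting also gave a gene median of 0.017, large and small subunit medians of 0.033 and 0.00691, and 63 probes above 0. For 4 probes the groups did not overlap, and the share of all kept probes was not computed there. The cause of these changes was not tested.

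With 1 pool left out, the median of the probes was 0.053 to 0.15 and that of the genes 0.077 to 0.18, with 79 to 99 probes above 0; the large subunit gave 0.086 to 0.18 and the small 0.043 to 0.18. The count of probes with an unadjusted p under 0.05 in limma was 1 to 6. It was 1 without V2 or SF4, where 2.91% and 5.97% of all kept probes had such a p. Without SF1 it was 6, where 5.61% of all kept probes did. The count without overlap was 0 to 7, highest without SF1, where fewer pools make separation easier. The dye count was 5 to 14, lowest without V2. For overlap and dye, the shares of all kept probes were not computed with pools left out. Neither count is therefore read as a trait of the members. With the file as a random block, 6 probes had an unadjusted p under 0.05 where 9.04% of all kept probes did. Background, loess, scaling, filter, dye and table alternatives gave probe medians of 0.084 to 0.099. The 1 probe past the adjustment over the whole array was lost (0 left) without background subtraction, without loess, with median centring, with the stricter filter, with the replicate block, with the value table and with any 1 pool or both V3 and SF2 left out.

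Per the methods, each cycle of fertilisation and freezing, run on its own date, gave a tube per treatment, so the groups share cycles. The labels do not say whether pools with the same number come from the same cycle. Same-numbered pools correlated by 0.16, 0.09, -0.03 and 0.09, and the main fit did not pair them. With a replicate block the probe median was 0.0895 with 98 probes above 0, and 0 of all kept probes passed the adjustment. With 4 pools a group the standard errors of the 126 probes were 0.13 to 0.29, which limits what could be detected.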
